A study of Mus musculus with 8 samples.

Results

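The PYHIN genes encode the p200 proteins of the mouse, a family named for an N-terminal pyrin domain and C-terminal HIN domains. The members described here were chosen by name, with the difference between the groups already known, and are AI607873 (named Ifi207 in the current annotation), Ifi203, Ifi204, Ifi205, Mnda (Ifi211), Mndal, Pyhin1 (Ifi209) and Aim2. All 8 were found among the 12823 genes of the count table, and all 8 were among the 12494 genes that passed the filter on low counts. Their values are therefore given as a description, without a test.

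RNA was sequenced from mouse acute myeloid leukemia (AML) cells made by transducing bone marrow progenitors with a retrovirus carrying the fusion gene MLL-AF9 and GFP. Libraries were made from newly generated AML cells (4 libraries), taken after the primary leukemia had developed in sublethally irradiated recipients, and from aggressive AML cells (4 libraries). By the study's account, the aggressive cells were derived from the newly generated cells through 5 serial transplantations. In both groups the leukemia cells had grown in C57BL/6 mice, and GFP+ cells were sorted from the bone marrow before RNA extraction. The serial transplantations were made into mice that had not been irradiated, so that host treatment differed along with the number of passages. The mice were young adults by the study's methods, and the labels give no number of transduced clones and no batch, so that a batch following the groups could not be told apart from them.

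Library totals ranged from 7805544 to 9697777 counts. A value of 3 counts was worth between 0.308 and 0.389 CPM, the count of a gene scaled by its library total and a TMM scaling factor. All 8 markers fixed for MLL-AF9 leukemia were measured, with a summed level of 2100 to 2641 CPM in new AML and 2344 to 2888 CPM in aggressive AML. The study describes the mice of both groups as male. The summed level of 4 Y-linked genes (Ddx3y, Eif2s3y, Kdm5d and Uty) was nevertheless 251 to 287 CPM in the new AML libraries and 0 in every aggressive AML library. The study does not state the sex of the bone marrow donors. Whether the cells of both groups came from the same leukemia was not tested. The groups thus differed in Y-linked transcripts as well as in transplantation history, and the part of either in the values below cannot be told apart.

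PYHIN proteins bind double-stranded DNA through their HIN domains and other pyrin-domain proteins through their pyrin domain. Aim2 stays in the cytosol, where bound DNA makes it assemble an inflammasome with the adaptor Pycard and the protease Casp1, while most p200 proteins are found in the nucleus as regulators of transcription, cell growth and myeloid differentiation. Many of the genes are induced by interferons, and several are expressed in macrophages and other myeloid cells.

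The annotation of GRCm38, the build also called mm10, places 13 protein-coding PYHIN genes side by side on chromosome 1, at chr1:173349547-174031755, a stretch of 682.2 kb. From one end to the other, the members lie in the order Aim2, Pyhin1, AI607873, Ifi204, Mndal, Mnda, Ifi203 and Ifi205. The annotated span of Aim2 overlaps Cadm3 and a tRNA gene. Besides the members, LOC102639543 (Ifi206), Pydc4 (Ifi213) and Pydc3 (Ifi208) had a row in the table, and Ifi202b and Ifi214 are not analysed here.

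RefSeq promoter sequences, from 250 bases before to 50 bases after the annotated start, were matched for 7 of the 8 members, all but Ifi204. They were searched on both strands for the core of the interferon-stimulated response element (ISRE), taken as 2 half-sites GAAA on the same strand with any 2 bases between them. The gamma-activated sequence and an ETS-IRF composite element were searched too and are not reported here. This core was present in 3.44% of all 32851 promoters and in at least one promoter of 5 of the 7 members. The commonest letters at the core in the PYHIN promoters, read from these sequences, were GAAATCGAAA, which 3 members carried on the strand of the gene and 13 of the 32851 promoters (0.0396%) held before the start. This exact form was picked after the promoters had been read.

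The sequences below show the element or its nearest match in members that were lower and in Pydc4, a family gene whose groups overlapped. Each is 50 bases of the GRCm38.p6 reference, 5′ to 3′ on the strand of the gene, with the element or its nearest match in capitals.
AI607873 (chr1:173741821-173741870, minus strand): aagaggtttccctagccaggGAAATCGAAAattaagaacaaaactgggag
Mndal (chr1:173880194-173880243, minus strand): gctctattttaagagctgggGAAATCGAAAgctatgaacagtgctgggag
Ifi203 (chr1:173942498-173942547, minus strand): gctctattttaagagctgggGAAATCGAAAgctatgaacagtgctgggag
Mnda (chr1:173913054-173913103, minus strand): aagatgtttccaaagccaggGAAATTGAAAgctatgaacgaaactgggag
Ifi205 (chr1:174031860-174031909, minus strand): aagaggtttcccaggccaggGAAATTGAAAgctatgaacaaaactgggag
Pyhin1 (chr1:173630760-173630809, plus strand): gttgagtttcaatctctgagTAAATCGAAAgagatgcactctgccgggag
Pydc4 (chr1:173599316-173599365, minus strand): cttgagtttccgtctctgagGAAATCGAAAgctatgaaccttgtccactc
The windows of Mndal and Ifi203 were identical. With positions counted from 1 at the 5′ end of GAAATCGAAA, Mnda and Ifi205 carried C6T, which keeps the ISRE core, and Pyhin1 carried G1T, which does not. The 5′ end of the element lay 35 to 41 bases before the annotated start in AI607873, Mndal, Ifi203 and Mnda, 73 bases before it in Pydc4, 79 in Pyhin1 and 134 in Ifi205.

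The promoter of Aim2, the member that was not lower, is shown at a single annotated start. Other annotated coding transcripts of Aim2 begin elsewhere, as at chr1:173350879, and the bases before those starts were not searched. The 250 bases shown, before the start on the plus strand, hold no ISRE core.
Aim2 (chr1:173420354-173420603, plus strand): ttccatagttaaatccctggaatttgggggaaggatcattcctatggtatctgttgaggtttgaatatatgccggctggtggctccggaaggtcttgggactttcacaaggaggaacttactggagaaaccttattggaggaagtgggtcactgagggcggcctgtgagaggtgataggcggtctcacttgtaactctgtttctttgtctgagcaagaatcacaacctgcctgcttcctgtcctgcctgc
The nearest match to GAAATCGAAA in it was on the opposite strand and differed by A3C, T5A and C6A. A match to these letters is a description of the sequence and does not show that a factor was bound.

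Of the 8 members, 7 were lower in aggressive AML in every library than in any new AML library, and Aim2 was not. Over the whole table, 12.0% of genes were lower without overlap and 10.2% were lower at an adjusted p under 0.05 in the quasi-likelihood test of edgeR, and since the members were chosen on this contrast nothing is read from their count. The median log2 fold change of the 8 members, aggressive over new AML, was -2.11, and the median over all tested genes was 0. In 4 members (AI607873, Ifi204, Ifi205 and Mnda) fewer than 4 aggressive AML libraries reached 1 CPM, so that they passed the filter through the new AML group. In bulk RNA, fewer cells expressing a gene and less RNA per cell cannot be told apart.

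**Figure D1:**
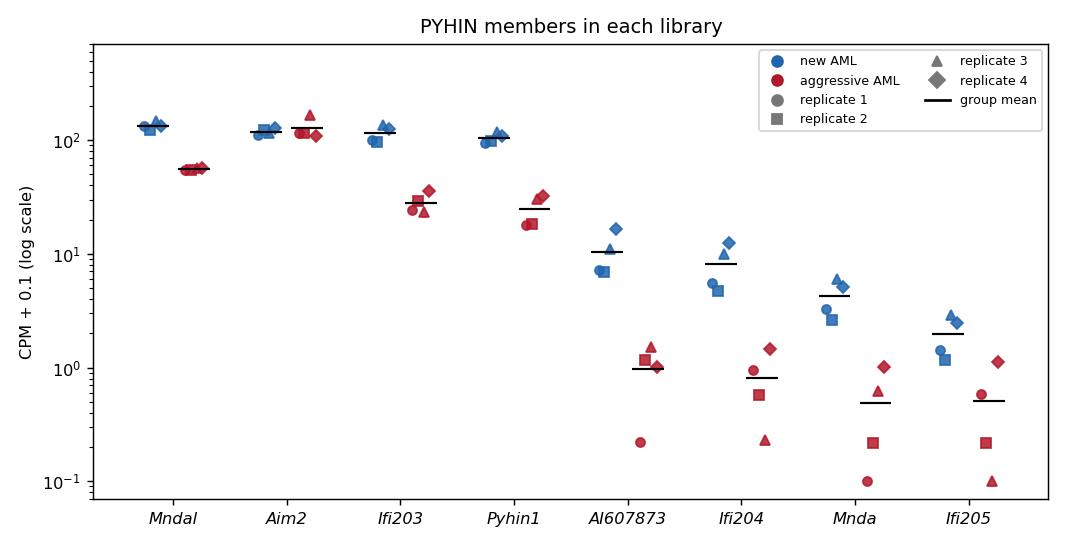
Level of each PYHIN member in each library, as CPM + 0.1 on a logarithmic axis, in the 4 new AML libraries (blue) and the 4 aggressive AML libraries (red), with marker shapes for replicate numbers and black bars for group means. The groups are apart in 7 members and overlap in Aim2, where aggressive AML replicate 3 lies above all other libraries.

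Among the members that were lower, Ifi203, Pyhin1 and Mndal were abundant. Ifi203, a nuclear p200 protein, had levels of 100.3, 96.9, 135 and 126 CPM in new AML replicates 1 to 4. Its levels in aggressive AML replicates 1 to 4 were 24.2, 29.0, 23.1 and 35.5 CPM. The lowest new AML library was thus well above the highest aggressive AML library, and the means were 115 ± 18.8 and 27.9 ± 5.66 CPM (SD, n = 4). On the log2 scale the difference was -2.03, with a standard error (SE) of 0.14.

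Pyhin1, whose human counterpart is known for acting on the p53 regulator MDM2, had levels of 94.1, 97.9, 118 and 109 CPM in new AML. In aggressive AML the levels were 17.8, 18.3, 30.5 and 32.2 CPM. The aggressive AML libraries fell into a lower pair, replicates 1 and 2, and a higher pair, replicates 3 and 4, all of them far below new AML. On the log2 scale the difference was -2.09 (SE 0.17).

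Mndal, a nuclear p200 protein named for its likeness to the human myeloid nuclear differentiation antigen, varied little between libraries of a group. Its levels were 132, 122, 146 and 134 CPM in new AML and 54.0, 54.2, 57.3 and 56.4 CPM in aggressive AML. The SD of the aggressive AML libraries was 1.64 CPM (n = 4), and the log2 fold change of -1.26 (SE 0.08) was the smallest among the 7 members that were lower. With Ifi203 sharing the same window around the ISRE core, the pair differed in size of change, -2.03 against -1.26 on the log2 scale.

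The other members that were lower were expressed at a low level. Ifi204, which binds the retinoblastoma protein, takes part in myeloid differentiation and acts in DNA sensing, had 53, 39, 89 and 110 counts in new AML and 7, 4, 1 and 12 counts in aggressive AML. As levels these were 5.44, 4.64, 9.93 and 12.3 CPM against 0.844, 0.471, 0.13 and 1.37 CPM. The log2 fold change was -3.47 (SE 0.46), and new AML itself spanned a 2.64-fold range.

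AI607873, Ifi204 and Mnda had differences of about the same size, within their SEs of each other. AI607873 had 69, 57, 98 and 146 counts in new AML and 1, 9, 11 and 8 counts in aggressive AML, or 7.08, 6.78, 10.9 and 16.3 CPM against 0.12, 1.06, 1.43 and 0.911 CPM. Its means were 10.3 ± 4.43 and 0.879 ± 0.55 CPM (SD, n = 4), a difference of -3.53 on the log2 scale (SE 0.42). New AML replicate 4 was the highest and aggressive AML replicate 1 was at a single count, below the level that 3 counts stand for.

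Mnda, the mouse gene that carries the name of the human myeloid nuclear differentiation antigen, had 31, 21, 53 and 45 counts in new AML and 0, 1, 4 and 8 counts in aggressive AML. These counts were 3.18, 2.50, 5.91 and 5.02 CPM against 0, 0.118, 0.518 and 0.911 CPM. No aggressive AML library reached 1 CPM. The log2 fold change was -3.37 (SE 0.55), and it was -4.24 without aggressive AML replicate 4, the library with the most counts of this gene in its group.

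Ifi205, reported to act on expression of the inflammasome adaptor Pycard, was the least abundant member. It had 13, 9, 25 and 21 counts in new AML and 4, 1, 0 and 9 counts in aggressive AML, so that the lowest new AML library (1.07 CPM) and the highest aggressive AML library (1.02 CPM) nearly met. The log2 fold change was -2.14 (SE 0.61). Leaving out aggressive AML replicate 4 moved it to -3.12.

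Aim2, the cytosolic DNA receptor of the inflammasome, stood apart from the others. Its levels were 109.8, 122, 114 and 127 CPM in new AML and 115, 116, 166 and 109.6 CPM in aggressive AML. Apart from aggressive AML replicate 3, the libraries of the groups overlapped, and the means were 118 ± 7.82 CPM (SD, n = 4) and 127 ± 26.1 CPM (SD, n = 4). The log2 fold change was 0.09 (SE 0.12) with all libraries and -0.06 without aggressive AML replicate 3.

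Among the family genes that were not on the list of members, LOC102639543 had 23, 11, 50 and 31 counts in new AML and 5, 1, 1 and 3 counts in aggressive AML. Its groups did not overlap, and the log2 difference was -3.34 (SE 0.57). No aggressive AML library reached 1 CPM, so that this gene too passed the filter through new AML, and no test is given for it. Pydc4 had 93, 27, 55 and 150 counts in new AML and 64, 50, 87 and 46 counts in aggressive AML, and its groups overlapped. Its log2 fold change was -0.25 (SE 0.38, adjusted p = 0.684, edgeR), and between -0.53 and 0.24 in the fits that left out 1 library. The letters GAAATCGAAA were thus found in AI607873, Mndal, Ifi203 and LOC102639543, whose values were lower. They were also found in Pydc4, which did not pass the test, and in Pydc3, which was too low to be tested. Mnda and Ifi205 held the ISRE core in another form and had lower values, while Pyhin1 lacked the ISRE core and had lower values.

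Genes next to the cluster were compared by the same fit. Within 1 Mb on either side, 4 genes could be tested, all of them on the side of Aim2 and between 716.6 and 965.4 kb from the cluster. None of the 4 passed the threshold. The log2 fold changes were 0.02 for Pigm (adjusted p = 0.918), 0.15 for Tagln2 (adjusted p = 0.217), 0.47 for Gm37125 (adjusted p = 0.143) and -0.34 for Dusp23 (adjusted p = 0.303), by the edgeR test.

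**Figure D2:**
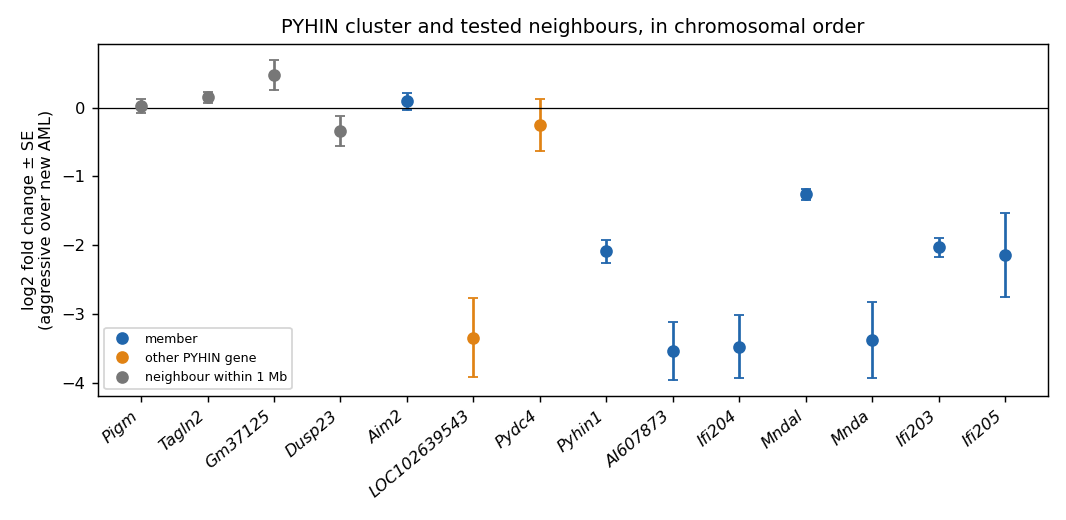
Log2 fold change of aggressive over new AML with its SE from the edgeR fit, for the members (blue), the other PYHIN genes tested (orange) and the tested neighbours within 1 Mb (grey), in their order along the chromosome and not to scale. Aim2 at one end of the cluster and Pydc4 lie near 0 with the neighbours, and the other PYHIN genes lie between -3.53 and -1.26.

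PYHIN genes resemble one another, and reads from a shared stretch can be assigned to more than one of them or dropped. Of all 50-base windows along the longest annotated transcript, the share also present in another PYHIN gene was 0% for Aim2, 4.39% for AI607873, 5.86% for Ifi203, 26.4% for Mndal, 29.3% for Pyhin1, 29.7% for Ifi204, 49.6% for Ifi205 and 72.9% for Mnda. The values of Mnda and Ifi205 are therefore the most uncertain as single genes, since each shared more windows with the other than with any further PYHIN gene. Ifi204 and Mndal shared most with Mnda (23.2% and 15% of windows), and Pyhin1 with Ifi214 (29.3%). Their values are uncertain to a lesser degree, whereas AI607873 and Ifi203 were largely unique and were both lower. Outside the members, the share was 15.1% for LOC102639543 and 27.9% for Pydc4. RefSeq keeps Mndal and Ifi203 apart, but in GENCODE a coding transcript of Mndal (chr1:173857221-173942491, minus strand) spans Mnda and reaches into Ifi203, and which annotation the counting used is not given in the sources used here.

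A sum over the family is not changed by how reads are split among its members, though it is by reads that were dropped, counted more than once or shared with PYHIN genes outside the sum. The 8 members together had 453 to 543 CPM in the new AML libraries and 212 to 278 CPM in the aggressive AML libraries, a 2.09-fold lower mean in aggressive AML. Without Aim2 the sums were 377 ± 46.9 and 110.5 ± 13.5 CPM (SD, n = 4), 3.41-fold lower in aggressive AML. The make-up of the family changed with it, as Aim2 held 24.1% of the summed CPM in new AML and 53.1% in aggressive AML.

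Levels of different genes were compared as CPM per kb of the longest annotated coding transcript. In new AML, Mndal was highest at 65.8 ± 4.86 CPM per kb (SD, n = 4), followed by Aim2 at 41.7 ± 2.77 and by Ifi203 and Pyhin1, both at 30.5, with SDs of 5.00 and 3.20 CPM per kb. Ifi203 and Pyhin1 did not differ beyond their spread. The other 4 members were lower by about an order of magnitude, at 3.51 ± 1.58 for Ifi204, 3.00 ± 1.29 for AI607873, 2.33 ± 0.887 for Mnda and 1.17 ± 0.505 CPM per kb for Ifi205 (SD, n = 4), and neighbours in this order overlapped.

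In aggressive AML the order at the top was turned. Aim2 came first at 44.6 ± 9.19 CPM per kb, followed by Mndal at 27.4 ± 0.811, Ifi203 at 7.45 ± 1.51 and Pyhin1 at 7.18 ± 2.24 CPM per kb (SD, n = 4). The lowest Aim2 library, at 38.6 CPM per kb, was above the highest Mndal library, at 28.3 CPM per kb. The other 4 members lay between 0.217 and 0.306 CPM per kb and could not be ordered beyond their spread. These levels rest on the transcript length used, and with the shortest annotated coding transcripts Aim2 in new AML would be at 363 and Mndal at 175 CPM per kb.

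**Figure D3:**
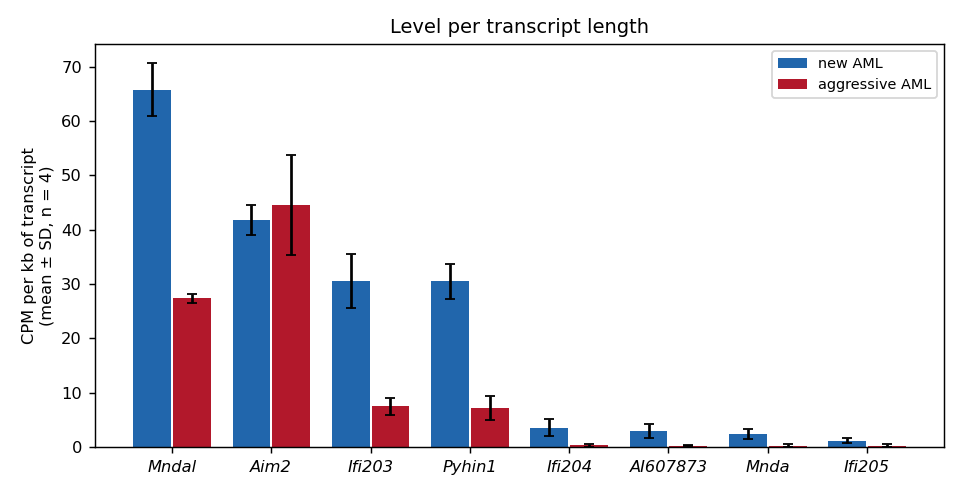
Mean level of each member as CPM per kb of its longest annotated coding transcript, with SD over 4 libraries, in new AML (blue) and aggressive AML (red), on an axis that starts at 0. Mndal is highest in new AML at 65.8 CPM per kb, and Aim2 is highest in aggressive AML at 44.6 CPM per kb.

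Libraries of one group also differed in the family as a whole. The mean log2(CPM + 1) of the 8 members was 4.51, 4.43, 4.97 and 5.00 in new AML replicates 1 to 4 and 2.89, 2.97, 3.11 and 3.38 in aggressive AML replicates 1 to 4. New AML replicate 2 was the lowest of its group in 6 of the 8 members, and new AML replicate 3 the highest in 5 and replicate 4 in the other 3. In aggressive AML, replicate 4 was the highest in 5 members. After subtraction of the group means, Mnda followed the mean of the other members most closely over the 8 libraries (Pearson r = 0.94), the other members that were lower had r between 0.60 and 0.79, and Aim2 had r = -0.05. The libraries share RNA input, depth and the reads that similar genes have in common, so these values are a description.

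The genes most like the family were those whose deviations from the group means, over the 8 libraries, had the highest Pearson r with the mean of the members. Among 9285 other genes with a mean of at least 10 CPM, these were Dph6 (r = 0.97, Spearman rho = 0.90), Ints4 (r = 0.97, rho = 0.88), Slfn5 (r = 0.96, rho = 0.93), Trim30d (r = 0.94, rho = 0.90) and Adgrl1 (r = 0.93, rho = 0.83). They are the highest of 9285 values over only 8 libraries, and how high such values would be by chance was not tested. Without the 2 libraries farthest from the median the r values were 0.95, 0.96, 0.94, 0.98 and 0.97, from libraries already used in the selection. Without new AML replicate 3, Ints4, Dph6 and Slfn5 ranked 2, 4 and 5, but Trim30d ranked 17 and Adgrl1 29. Of these genes, Slfn5 and Trim30d were lower in aggressive AML, with log2 fold changes of -2.74 (adjusted p = 4.6e-06, edgeR) and -0.83 (adjusted p = 0.00168, edgeR). Dph6, Ints4 and Adgrl1 had log2 fold changes of 0, -0.09 and -0.08, with adjusted p values of 1, 0.484 and 0.606 in the edgeR test, so likeness among replicates did not go with a difference between groups in these genes.

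Lists of other genes of the pathway were read beside the 10.2% of all tested genes that were lower and the 8.15% that were higher. Of 50 tested interferon-induced genes outside the family, 43 fell and 0 rose, and the median log2 fold change was -1. Slfn5, a Schlafen protein, was at 41.5 ± 13.2 CPM in new AML and 6.17 ± 2.47 CPM in aggressive AML (SD, n = 4). Ifitm3, which blocks entry of viruses into cells, had a log2 fold change of -2.23, Ifi27l2a of -2.42 and Slfn8 of -1.48 (adjusted p = 1.15e-05, 1.2e-05 and 1.29e-05, edgeR).

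Interferon receptors, their JAK kinases and the STAT and IRF factors changed mostly in the same direction, with 16 of 22 tested genes lower and 1 higher. Irf9, the DNA-binding part of the complex that occupies ISRE sequences, was at 102 ± 9.74 CPM in new AML and 49.97 ± 5.19 CPM in aggressive AML (SD, n = 4; adjusted p = 4.53e-06, edgeR). Irf7, a regulator of type I interferon genes, was at 22.0, 17.1, 41.8 and 24.3 CPM in new AML and at 6.87, 7.66, 6.74 and 7.85 CPM in aggressive AML, with a log2 fold change of -1.85 (adjusted p = 7.08e-05, edgeR). Usp18, a brake on interferon receptor signalling, changed by -2.32 and Ifngr2, a chain of the interferon gamma receptor, by -0.65 on the log2 scale (adjusted p = 0.000208 and 0.000154, edgeR). The other chain, Ifngr1, was the gene that rose, by a log2 fold change of 0.38 (adjusted p = 0.0204, edgeR), and it was not past the threshold without new AML replicate 1.

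Genes of inflammasomes and pyroptosis, among them the partners of Aim2, were read in the same way. Of 17 tested genes of inflammasomes and pyroptosis, 5 fell and 0 rose, with a median log2 fold change of -0.25. Mefv, the pyrin protein, changed by -0.71 on the log2 scale, and the inflammasome sensors Nlrp1a and Nlrp1b by -0.90 and -1.46 (adjusted p = 2.48e-05, 0.00202 and 0.00699, edgeR). The adaptor Pycard was at 118 ± 12.8 and 106 ± 3.17 CPM (SD, n = 4; adjusted p = 0.211, edgeR), and the protease Casp1 at 72.7 ± 6.93 and 60.6 ± 5.24 CPM (SD, n = 4; adjusted p = 0.0665, edgeR). The pore-forming Gsdmd fell by 0.30 on the log2 scale (adjusted p = 0.0362, edgeR), but its groups overlapped and it was past the threshold in 3 of the 8 fits that left out 1 library.

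In the list of cytosolic DNA sensing, 4 of 20 tested genes fell and 0 rose, and the median log2 fold change was -0.01. Tmem173, which encodes the adaptor STING, was at 170, 178, 186 and 182 CPM in new AML and at 109.5, 82.7, 67.9 and 104 CPM in aggressive AML. Its groups did not overlap (log2 fold change -0.97, adjusted p = 5.86e-05, edgeR). The nucleotide hydrolase Samhd1 and the exonuclease Trex1 each changed by -0.74 on the log2 scale (adjusted p = 6.16e-05 and 0.000139, edgeR), while the sensor Mb21d1, now named Cgas, was at 97.7 ± 11.5 and 80.2 ± 8.48 CPM (SD, n = 4; adjusted p = 0.0627, edgeR). Zbp1, a sensor of Z-form nucleic acids that is on 3 of the lists, changed by -2.27 on the log2 scale (adjusted p = 0.00247, edgeR) and by -1.45 without new AML replicate 3.

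**Figure D4:**
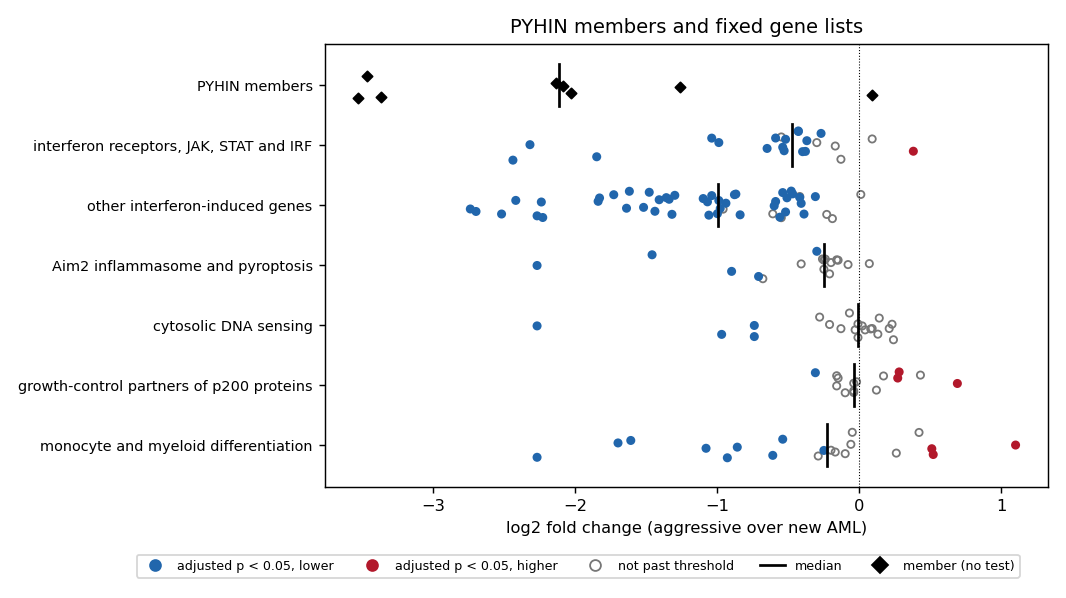
Log2 fold change of aggressive over new AML for the PYHIN members (black diamonds, no test) and each tested gene of 6 gene lists (circles), which are filled for genes past an adjusted p of 0.05 in the edgeR fit (blue lower, red higher) and open for the others, with black bars for medians. The medians are -2.11 for the members, -1 for the other interferon-induced genes and -0.01 for cytosolic DNA sensing, and vertical scatter within a row has no meaning.

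The PYHIN members and the other interferon-induced genes did not follow each other in every library. The interferon list had a mean log2(CPM + 1) of 5.68 in new AML replicate 3 and 4.78 to 5.12 in the other new AML libraries, so that replicate 3 stood 0.55 above the group mean and replicate 4 was 0.02 below it (-0.02). The PYHIN members were high in both, at 0.24 and 0.27 above their group mean. In aggressive AML, replicate 4 was the highest for both.

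**Figure D5:**
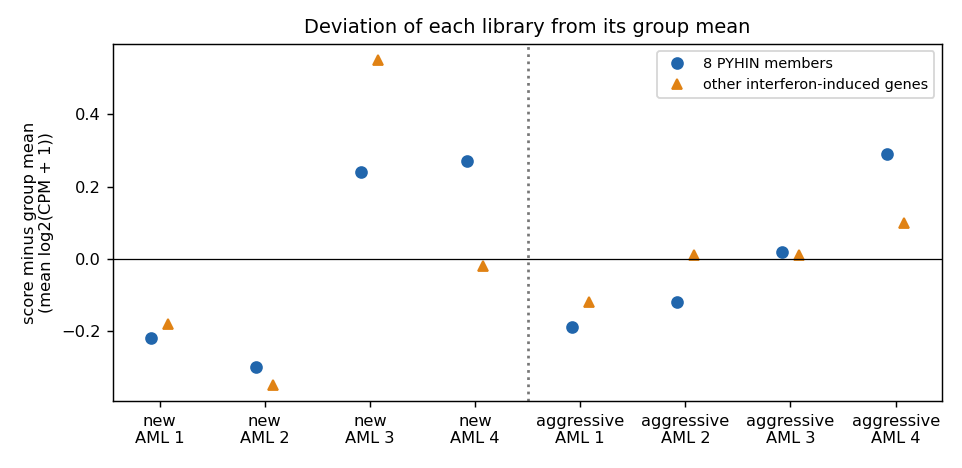
Deviation of each library from the mean of its group in the score (mean log2(CPM + 1)) of the 8 PYHIN members (circles) and of the other interferon-induced genes (triangles). In new AML replicate 4 the members are 0.27 above and the interferon list is 0.02 below the group mean (-0.02), while replicate 3 is high in both.

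Of 15 tested genes known as partners of p200 proteins in growth control, 1 fell and 3 rose. Rbl2, a relative of the retinoblastoma protein, fell by 0.31 on the log2 scale (adjusted p = 0.0207, edgeR). Id1, an inhibitor of differentiation, and the nucleolar proteins Ncl and Npm1 rose by 0.69, 0.27 and 0.28 (adjusted p = 0.0251, 0.0391 and 0.0408, edgeR). None of these 3 was past the threshold in the fits without new AML replicate 1, 2 or 4 or aggressive AML replicate 1 or 2. Ncl and Npm1 were not past it without aggressive AML replicate 3 either, and Rbl2 was not past it without new AML replicate 2 or 4 or aggressive AML replicate 1.

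Markers of myeloid cells changed in both directions. In the list of monocyte and myeloid differentiation, 9 of 20 tested genes fell and 3 rose, and the summed level was 9245 to 10910 CPM in new AML and 9037 to 11210 CPM in aggressive AML. Csf1r, the receptor of macrophage colony-stimulating factor, was at 166 ± 28.4 CPM in new AML and 51.2 ± 6.42 CPM in aggressive AML (SD, n = 4; adjusted p = 3.76e-07, edgeR). Klf4, a factor of monocyte differentiation, changed by -2.27 and Mpeg1, a macrophage perforin, by -0.86 on the log2 scale (adjusted p = 0.000304 and 0.000541, edgeR), while the granule protease Ctsg rose by 0.51 on the log2 scale (adjusted p = 0.000636, edgeR). The other genes that rose, named after their values were seen, were the granule protease Elane (log2 fold change 0.52, adjusted p = 0.0205, edgeR) and the granulocyte factor Cebpe (1.1, adjusted p = 0.00233, edgeR), and their groups overlapped. Between 2 and 4 genes of the list rose in the fits that left out 1 library. Among the leukemia markers, Hoxa10 and the integrin Itgam changed by -0.59 and -0.61, and Mef2c and the receptor Kit rose by 0.62 and 0.65 (adjusted p = 7.85e-05, 0.00122, 0.00109 and 0.0014, edgeR).

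Markers of other cells that a bone marrow sort could hold were counted as well. Of 13 macrophage markers, 4 could be tested and 2 of them fell (Adgre1 by a log2 fold change of -0.83 and Axl of -1.41, adjusted p = 0.00245 and 0.0168, edgeR), with a summed level of 65.9 to 116 CPM in new AML and 38.3 to 57.9 CPM in aggressive AML. C1qa, C1qb, Marco, Cd5l, Vsig4, Timd4, Siglec1 and Mertk are not analysed here. Of 12 dendritic cell markers, 5 could be tested and 3 fell. The log2 fold changes were -1.91 for Itgax and -0.48 for Bst2 (adjusted p = 1.31e-06 and 0.0451, edgeR), and -3.59 for Siglech. Siglech was at 0 to 0.911 CPM in aggressive AML and passed the filter through new AML. Its fall is therefore a description, without a p-value. The sums were 663 to 826 CPM in new AML and 713 to 889 CPM in aggressive AML. Flt3, also a leukemia marker, held most of these sums, at means of 583 and 721 CPM. Neither Flt3 nor H2-Ab1 passed the threshold. Bst2 is itself induced by interferon and was past the threshold in 1 of the 8 fits that left out 1 library.

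Lymphoid and erythroid markers had low summed levels. Of the tested markers, 1 of 3 for T cells rose (Bcl11b, log2 fold change 1.2, adjusted p = 0.0427, edgeR) and 1 of 3 for B cells fell (Cd22, log2 fold change -4.83). Cd22 was at 0 to 0.241 CPM in aggressive AML and passed the filter through new AML. Its fall is therefore a description, and no p-value is given for it. For NK cells, 1 of 2 markers rose (Nkg7, log2 fold change 0.70, adjusted p = 0.0226, edgeR), and 2 of 7 erythroid markers fell (Slc4a1, -1.65, and Hba-a1, -1.02, adjusted p = 0.0301 and 0.048, edgeR). Leaving out 1 library at a time, Axl was past the threshold in 6 of 8 fits, Slc4a1 in 5, Nkg7 in 4, Hba-a1 in 2 and Bcl11b in 1. The sums were 66.0 to 95.6 and 51.8 to 104 CPM for T cells, 40.7 to 44.9 and 31.0 to 36.6 CPM for B cells, 15.0 to 27.8 and 25.8 to 33.0 CPM for NK cells, and 26.9 to 99.8 and 10.02 to 53.0 CPM for erythroid cells, in new and aggressive AML. The part of any of these cell types in the PYHIN values was not tested.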

How the data were processed

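Polyadenylated RNA of sorted GFP+ leukemia cells was sequenced from both ends in 4 new AML and 4 aggressive AML libraries. The authors aligned the reads to mm10 with HISAT2, used Rsubread to obtain gene counts and removed genes under 1 CPM. The deposited values are whole-number counts per gene and were used as raw counts; the annotation and strand setting of the counting are not given in the sources used here, so overlapping genes are uncertain. Of the 12823 genes, the 12494 that reached 1 CPM in 4 or more libraries were tested in edgeR (4.0.16, under R 4.3.3) by its quasi-likelihood test, with TMM scaling and the group as the only term. P-values are two-sided with Benjamini-Hochberg adjustment over all tested genes and a threshold of 0.05. They measure the spread between libraries labelled as biological replicates, whose separate animals the labels do not name. The study names a single cell population for each group, so the p-values do not measure the spread between independently made leukemias. CPM values carry the TMM factors (0.986 to 1.01). The common biological coefficient of variation was 0.118, and intervals of counting error are not given. DESeq2 (version 1.42.0), limma (version 3.58.1), other scaling, no filter, a replicate block and leaving out each library were tried as alternatives. The scripts were tested on simulated data.

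The members, the gene lists and the alternatives were chosen with earlier results of these data known. Named were all members, all other PYHIN genes in the table, the tested genes within 1 Mb, up to 4 genes past the threshold per list with the smallest p-values, the main partners of Aim2, the 5 genes most like the family and Y-linked genes. Ifngr1 was named after its values were seen. Gene positions are from RefSeq, promoters from RefSeq (GRCm38.p6) and transcripts from GENCODE of the same build, and 187 of the 12823 gene names matched no annotated gene.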

Additional observations from a re-analysis of the deposited data

Results flagged for a closer look

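In 59 named genes, each group of 4 libraries was checked for a library far from the other 3, and 5 of the 118 groups held one; about 1 in 20 such groups is picked out by chance. The member among them was Aim2, at 166 CPM in aggressive AML replicate 3 against 110 to 116 CPM in the other 3 libraries of its group. Mef2c was also high in that library, at 637 against 430 to 454 CPM. Zbp1 was at 32.6 CPM in new AML replicate 3 and at 7.6 to 8.7 CPM in the others, in the library that was highest for the other interferon-induced genes. In aggressive AML replicate 2, Kit was at 139 CPM against 173 to 175 CPM, and Pycard at 111 against 104 to 105 CPM.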

How the results depend on the processing

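With limma on log2(CPM + 1) the log2 fold changes of the low members were smaller, at -2.56 for AI607873, -2.38 for Ifi204, -1.05 for Ifi205 and -1.89 for Mnda, since the added 1 CPM pulls low values together. With the shortest coding transcript in place of the longest, the new AML levels were 37.5 for Ifi203, 174.9 for Mndal and 363.4 CPM per kb for Aim2. Leaving out 1 library at a time gave a median log2 fold change of the members of -2.68 to -1.98, and values of -4 to -3.14 for Ifi204, -3.12 to -1.76 for Ifi205, -4.24 to -2.97 for Mnda and -0.06 to 0.16 for Aim2; the ends at -2.68, -4, -3.12 and -4.24 were all without aggressive AML replicate 4. Over the whole table it gave 884 to 1304 lower genes (1278 with all libraries) and 650 to 1077 higher genes (1018 with all libraries), with 650 without new AML replicate 2. In the 6 pathway lists together it gave 64 to 72 lower genes (73 with all libraries) and 2 to 9 higher genes (7 with all libraries), with 2, 3 and 4 without new AML replicates 1, 2 and 4 and 4 without aggressive AML replicate 1 or 2. Fewer libraries were fitted in each of these. Same-numbered replicates did not deviate together (correlations of 0.097, -0.040, -0.065 and 0.204), so the numbers were not taken as pairs. With the replicate number as a block, 1364 genes were lower and 1003 higher. Among the genes named here, none past the threshold changed direction under these alternatives. Casp1 passed it without new AML replicate 1 or aggressive AML replicate 3, and Mb21d1 without new AML replicate 4. At this depth, levels under about 0.39 CPM rest on 3 counts or fewer, which limits Mnda, Ifi204, Ifi205 and AI607873 in aggressive AML.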

Other observations

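Pydc3 (Ifi208), another PYHIN gene of the cluster, was too low to be tested. Its promoter holds the letters GAAATCGAAA, and it had 10, 5, 11 and 9 counts in new AML and 2, 2, 2 and 0 counts in aggressive AML.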
